A study of Mus musculus with 12 samples.

Results

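In the mouse inguinal lymph node, CD11c cells were compared between nodes draining a KPC tumor and nodes of healthy mice, across all 23729 genes that could be tested. The comparison used 8 of the 12 libraries of the series, 4 of each group, chosen by their group label and paired by the prefix that their titles share, so that replicates 1 to 4 of one group are the partners of replicates 1 to 4 of the other. The healthy group came from mice with no tumor and no CD40 agonist. The tumor-draining group came from mice with a subcutaneous KPC tumor and no CD40 agonist, and the remaining 4 libraries, from tumor-draining nodes of mice given the agonist, entered only the shared fit. KPC names a mouse model of pancreatic carcinoma. The sources used here do not give strain, age, sex, the number of mice behind a library, the stage of the tumor or how the CD11c cells were isolated. Because the labels do not say that libraries came from separate animals, a p-value here speaks only of the spread among the libraries, and that spread may be technical.

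A lymph node that drains a tumor receives tumor antigen, soluble mediators and migrating cells through the lymph. Dendritic cells there present that antigen to T cells: type 1 conventional dendritic cells mainly to CD8+ T cells, type 2 cells mainly to CD4+ T cells. CD11c, the integrin alpha X chain encoded by Itgax, is high on dendritic cells and is also carried by some macrophages, monocytes, natural killer cells, B cells and plasmablasts. RNA of a CD11c preparation can therefore hold more than dendritic cell RNA, and in bulk samples fewer cells of a type and less RNA per cell cannot be told apart.

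Library totals ran from 32626784 to 56320661 estimated counts. The dendritic cell genes that define the preparation were abundant in all 8 libraries. Itgax stood at 679, 647, 913 and 1090.1 CPM in healthy replicates 1 to 4 and at 871, 751, 1129.7 and 1121 CPM in tumor-draining replicates 1 to 4, where CPM are counts scaled to a common library total. Flt3, the growth factor receptor of dendritic cells, ranged from 525 to 832 CPM, Zbtb46, a transcription factor of conventional dendritic cells, from 159 to 213 CPM, and Cd40 from 105 to 147 CPM, and none of the 4 passed the test. B cell markers summed to 454 to 820 CPM in healthy and 585 to 949 CPM in tumor-draining libraries, and T cell markers to 546 to 926 and 418 to 958 CPM. In a principal component analysis of the 8 libraries, the first component, with 42.0% of the variance, set replicates 1 and 2 of both groups apart from replicates 3 and 4, and within each pair the tumor-draining library lay on the same side of its partner. Tumor-draining replicate 3 held the highest sum of epithelial tumor markers, 466 CPM against 63.4 to 201 CPM in healthy libraries. Msln, mesothelin, was at 3.72, 0.173, 11.2 and 0.0227 CPM in tumor-draining replicates 1 to 4 and at most 0.056 CPM in healthy libraries. None of the 14 epithelial markers passed the test.

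With the title prefix as a block, 1495 genes, 6.3% of those tested, differed between tumor-draining and healthy nodes at an adjusted p under 0.05 (the quasi-likelihood test of edgeR, adjusted by Benjamini-Hochberg and used throughout, with gene positions on GRCm38). Of these, 954 were higher (4.02%) and 541 lower (2.28%) in tumor-draining nodes. The changes were small in the main: the median log2 difference was 0.54 among genes called higher and -0.78 among genes called lower, and 235 genes rose and 142 fell by more than 2-fold. Higher calls lay among abundant genes, with a median of 28.6 CPM in healthy nodes. Lower calls had a median of 5.33 CPM, nearer the 4.02 CPM over all genes tested. Split by mean level into 4 groups of about 5932 genes, from lowest to highest, the groups held 46, 125, 272 and 511 rises. Falls numbered 53, 212, 213 and 63 in the same order, so most lay in the middle groups. Of the 1495 genes, 1484 moved the same way in all 4 pairs, which held for 36% of all genes tested and which the paired test favors. For 495 the 2 groups did not overlap, which held for 4.26% of all genes tested. Protein coding genes were called higher in 839 and lower in 246 cases of 15823. Scaling by total counts alone gave 598 higher and 746 lower calls, so 44.5% of calls were higher in place of 63.8%.

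**Figure D1:**
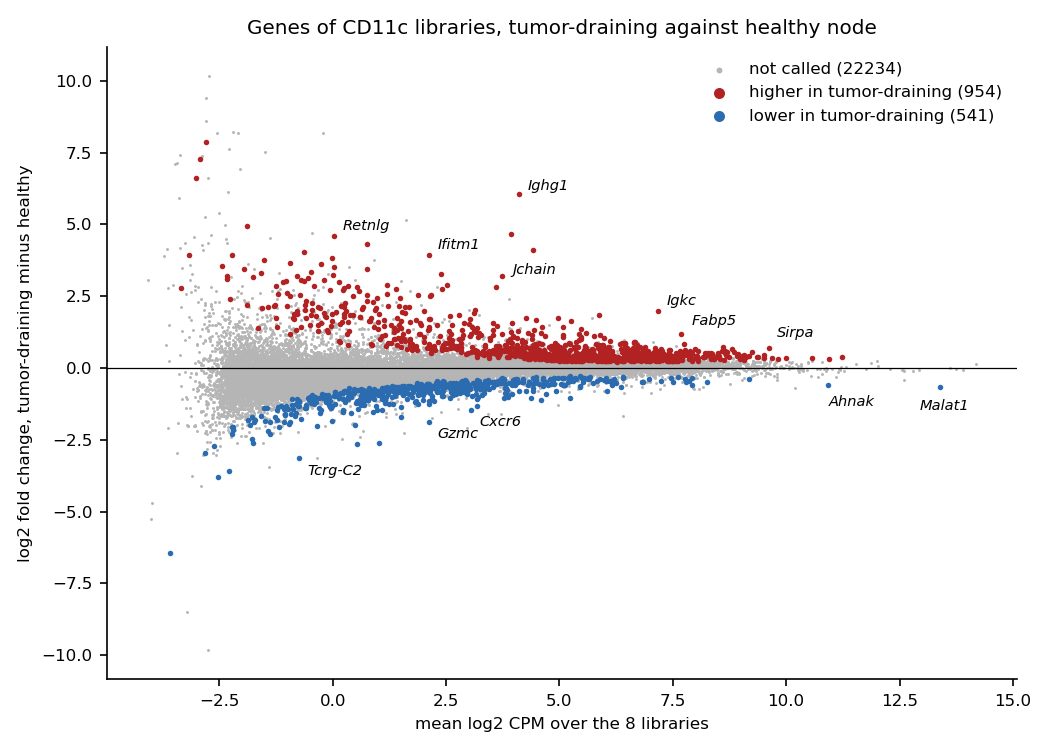
Log2 fold change of tumor-draining over healthy libraries (y) against mean log2 CPM over the 8 libraries (x), 1 point a gene. The 954 genes called higher (red) reach the right of the plot, whereas the 541 called lower (blue) lie mostly below the highest levels, with Malat1 and Ahnak as abundant exceptions.

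The calls leaned on the pairing and on single libraries. Without the block, 47 genes were called (0.198%), 43 higher and 4 lower. Leaving out healthy replicates 1, 2, 3 and 4 in turn gave 374, 598, 246 and 1742 called genes, and leaving out tumor-draining replicates 1, 2, 3 and 4 gave 461, 665, 532 and 804. Of the pairs that the first component set apart, replicates 1 and 2 alone gave 1062 called genes (789 higher, 273 lower) and replicates 3 and 4 alone gave 8, all higher, with 2390 genes at an unadjusted p under 0.05. A core of 214 genes, 172 higher and 42 lower, was called in the full fit and in each of these 8 fits. Genes said below to be held in all 8 fits belong to that core.

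The largest rises among well measured genes (log2 CPM averaging 2 or more) included genes of mucosal and myeloid defense, of antibody secretion and of matrix breakdown. Jchain (chromosome 5, 88519809 to 88527891), the chain that joins secreted IgA and IgM into polymers, stood at 4.86, 4.37, 6.61 and 2.48 CPM in healthy replicates 1 to 4 and at 28.6, 30.4, 87.9 and 34.3 CPM in tumor-draining replicates, a log2 difference of 3.20 ± 0.24 (SE; adjusted p = 0.00144). The groups did not overlap and the call was held in all 8 fits. Slpi (chromosome 2, 164354070 to 164389095), a secreted inhibitor of neutrophil proteases, rose from 0.635, 2.30, 2.27 and 2.19 to 12.3, 11.1, 43.3 and 11.5 CPM (3.28 ± 0.40, adjusted p = 0.00666), again without overlap and in all 8 fits. In both genes tumor-draining replicate 3 was far above the other 3 libraries of its group. Ifitm1, a membrane protein that restricts virus entry, was at 1.08, 1.06, 1.53 and 1.13 CPM in healthy and 38.1, 10.7, 56.8 and 2.34 CPM in tumor-draining libraries, with replicate 4 the least raised (3.94 ± 0.75, adjusted p = 0.0351). Its call was made in 2 of the 8 fits that leave out 1 library, with an adjusted p of up to 0.139.

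Mmp9, the gelatinase stored in neutrophil granules and also made by dendritic cells, was at 1.39, 2.13, 3.63 and 1.79 CPM in healthy and 15.8, 11.1, 56.3 and 5.36 CPM in tumor-draining libraries (2.89 ± 0.46). Spon1, a secreted matrix protein, went from 4.72 ± 1.12 to 42.5 ± 35.8 CPM (mean ± SD, n = 4) and the neutrophil-attracting chemokine Cxcl2 from 1.98 ± 0.851 to 14.1 ± 9.25 CPM. Il1rn, the antagonist of the interleukin 1 receptor, rose in every pair from 15.1, 16.3, 18.9 and 18.2 to 67.7, 42.9, 103 and 34.9 CPM. Ffar2, the receptor of short chain fatty acids on myeloid cells, rose from 21.6, 21.3, 42.4 and 43.8 to 107, 98.8, 166 and 92.7 CPM. Neither Il1rn nor Ffar2 overlapped between groups. Dll4, a Notch ligand that dendritic cells show to T cells, rose from 3.30 ± 0.413 to 11.6 ± 4.66 CPM. Adamdec1, a metalloprotease of mature dendritic cells and macrophages, rose from 11.8 ± 6.96 to 40.2 ± 28.2 CPM and Alox15, the lipoxygenase that starts synthesis of lipoxins from arachidonic acid, from 5.33 ± 3.76 to 16.6 ± 9.48 CPM. Abca13, Tmem132c, Clec4a4 and Ifitm6 complete the 15, with log2 differences of 2.51, 2.02, 1.91 and 1.83. Of these 15 calls, those of Spon1 and Alox15 were made in none of the 8 fits that leave out 1 library, whereas those of Slpi and Jchain were made in all.

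The largest falls included genes of cytotoxic and innate-like lymphocytes. Cxcr6 (chromosome 9, 123806475 to 123811760), a chemokine receptor of memory and innate-like T cells, was at 12.3, 14.3, 18.4 and 10.9 CPM in healthy and 4.32, 4.92, 4.07 and 7.14 CPM in tumor-draining replicates 1 to 4 (-1.45 ± 0.20, adjusted p = 0.0047). All healthy libraries lay above all tumor-draining ones, and the call was held in all 8 fits. Gzmc, a granzyme of cytotoxic lymphocytes, was at 12.8, 9.16, 4.37 and 8.72 CPM in healthy and 2.73, 2.36, 1.35 and 3.09 CPM in tumor-draining libraries (-1.87 ± 0.31, adjusted p = 0.0106), also without overlap. Skap1, an adaptor of T cell receptor signaling, fell from 13.8 ± 2.14 to 7.41 ± 2.71 CPM and was held in all 8 fits, as was Fndc4, a secreted fibronectin type III protein, which fell from 7.57 ± 0.506 to 3.87 ± 0.679 CPM. Cd3g, Zap70 and Bcl11b, which encode a chain of the T cell receptor complex, its proximal kinase and a T cell transcription factor, had log2 differences of -1.09, -0.98 and -0.96, and in each the groups overlapped.

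Not all large falls were in lymphocyte genes. Hepacam2, one of the type 1 dendritic cell markers listed for this comparison, was at 50.4, 54.5, 58.01 and 52.2 CPM in healthy and 24.1, 28.8, 18.9 and 36.05 CPM in tumor-draining libraries. Cd163, the hemoglobin scavenger receptor of macrophages, was at 20.7, 14.7, 24.8 and 18.2 CPM in healthy and 10.5, 7.44, 8.23 and 13.3 CPM in tumor-draining libraries. Neither overlapped between groups. The calls of Hepacam2 and Cd163, at adjusted p of 0.0456 and 0.0466, were each made in 1 of the 8 fits. The rest of the 15 were Olfr109 (-1.33), the cytochrome P450 gene Cyp2ab1 (-1.25), the smooth muscle actin-binding gene Tagln (-1.15), Gprin3 (-1.14), Sned1 (-1.10) and the brain-type carnitine palmitoyltransferase Cpt1c (-1.07).

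Among the most abundant genes that rose, several build or move the actin skeleton and none rose by as much as 2-fold. Lcp1, the leukocyte actin bundler plastin, stood at 1589, 1795, 2834 and 2553 CPM in healthy and 2037, 2411, 3545 and 3300.4 CPM in tumor-draining replicates (0.37 ± 0.09, adjusted p = 0.0309). Every library was above its partner, although the groups overlapped. Myh9, nonmuscle myosin heavy chain, Cfl1, the actin-severing cofilin, and Pfn1, profilin, differed by 0.32, 0.32 and 0.34. Ptprc, the leukocyte phosphatase CD45, Lyst, which controls lysosome size, Rnf213, an interferon-inducible ubiquitin ligase, and Ifi30, the thiol reductase of antigen processing, differed by 0.34, 0.36, 0.37 and 0.35. Sirpa, the type 2 dendritic cell receptor that binds CD47, rose from 456, 509, 723 and 832 to 824, 844, 1287 and 1121 CPM (0.71 ± 0.09, adjusted p = 0.00236). Ciita, the master regulator of MHC class II transcription, rose from 646 ± 199.98 to 876 ± 238 CPM. Of the 30 MHC presentation genes, Ciita, Ifi30 and H2-DMb2 were higher (10%, against 4.02% of all genes) and none lower, with a median of 0.004. H2-Ab1, a class II chain that Ciita controls, was at 6365 ± 1444 and 5959 ± 1271 CPM. Of the 10 most abundant calls, that of Sirpa was the only one made in all 8 fits.

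Ahnak, a giant scaffold protein, fell from 1618, 2106, 3069 and 3095 to 1094, 1327, 1698 and 2643 CPM (-0.58 ± 0.11, adjusted p = 0.0101). Fos, an immediate early transcription factor, fell from 315, 389, 284 and 237 to 163, 225, 191 and 221 CPM without overlap (-0.61 ± 0.12, adjusted p = 0.0162). Rbpj, the DNA-binding partner of Notch, fell by 0.34, Cblb, a ubiquitin ligase that dampens lymphocyte activation, by 0.49, Vhl, which marks hypoxia-inducible factors for breakdown, by 0.34, Utrn, utrophin, by 0.32 and Rabgap1l by 0.38, all on the log2 scale. Of 33 immediate early genes 3 were lower (9.09%, against 2.28% of all genes) and none higher: Fos, Atf3 (-0.61) and Egr3 (-0.66). Their calls were made in 2, 7 and 1 of the 8 fits, over which 0 to 6 members of the list were lower, with none without healthy replicate 1, 6 without healthy replicate 4, 2 without tumor-draining replicate 4 and 1 without each of the other libraries.

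Most listed genes of the type I interferon response rose, while 1 of the listed GTPases and partners of the interferon gamma response passed the test. Type I interferon, made on sensing of nucleic acids, acts on genes with an interferon-stimulated response element. Of 54 type I response genes, 37 were higher (68.5%, against 4.02% of all genes) and 1, Mx1, lower, with a median log2 difference of 0.53 against -0.02 over all genes. Of 25 interferon gamma GTPases and partners, 1, Ciita, was higher (4%, near the 4.02% of all genes) and none lower, with a median of 0.33 and a positive log2 difference in 20. Over the 8 fits 0 to 5 of these were higher and 0 to 1 lower, with 5 higher and 1 lower without healthy replicate 4 and none higher without healthy replicate 1, 2 or 3 or tumor-draining replicate 4. DESeq2 called 9 higher and 1 lower. The difference between the 2 lists was not tested. The promoters of 3 members that rose are shown because they hold the element in different numbers and positions. Each run is the 150 bases upstream of the RefSeq start (GRCm38.p6), read on the gene's strand, and capitals mark the element, searched on both strands as GAAA, any 2 bases and GAAA again, which reads as TTTC, 2 bases and TTTC when it lies on the opposite strand.
Isg15 (chr4:156200819-156200968, minus strand): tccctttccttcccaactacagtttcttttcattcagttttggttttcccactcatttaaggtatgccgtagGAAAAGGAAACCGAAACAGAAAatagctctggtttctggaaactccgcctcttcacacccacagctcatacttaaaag
Ifit1 (chr19:34640739-34640888, plus strand): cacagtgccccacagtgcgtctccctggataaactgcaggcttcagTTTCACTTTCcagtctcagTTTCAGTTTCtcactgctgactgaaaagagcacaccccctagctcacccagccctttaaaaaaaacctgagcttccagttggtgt
Rsad2 (chr12:26456453-26456602, minus strand): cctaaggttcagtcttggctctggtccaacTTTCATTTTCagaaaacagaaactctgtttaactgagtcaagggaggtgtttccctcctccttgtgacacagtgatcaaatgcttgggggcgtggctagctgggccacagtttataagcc
In Isg15 the 3 matches overlap one another, starting 78, 72 and 66 bases before the start, in Ifit1 the 2 lie apart at 104 and 85 bases and in Rsad2 a single one lies at 120 bases. In the same window of Oasl1, which also rose, these letters were not found.

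Isg15, a ubiquitin-like modifier, stood at 5.35, 3.92, 7.47 and 8.55 CPM in healthy and 15.2, 11.5, 18.95 and 12.7 CPM in tumor-draining libraries (1.21 ± 0.17, adjusted p = 0.00546). Ifit1, which binds RNA without a self cap, stood at 8.09, 6.30, 12.2 and 14.7 CPM in healthy and 23.6, 18.1, 36.5 and 19.9 CPM in tumor-draining libraries (1.25 ± 0.24, adjusted p = 0.0281). Rsad2, viperin, rose from 16.2 ± 2.69 to 26.1 ± 6.52 CPM. In all 3 genes the groups did not overlap. The call of Ifit1 was made in 2 and that of Rsad2 in 5 of the 8 fits that leave out 1 library. Over 250 bases upstream, the element was found in 15 of 35 promoters of the called members (42.9%; 29 of the 37 genes had an entry) and in 978 of 32851 promoters of all genes (2.98%). It was also found in 11 of 16 promoters of the interferon gamma list (68.8%), whose members did not pass but for Ciita. Thus Irgm1 was at 89.3, 71.5, 99.3 and 102 CPM in healthy and 111, 103, 184 and 128 CPM in tumor-draining libraries (adjusted p = 0.0794) and Irgm2 at 39.2 ± 4.40 and 56.3 ± 17.3 CPM (adjusted p = 0.0583), both immunity-related GTPases, which were called in 1 and 2 of the 8 fits.

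Oas2 and Oas1g, oligoadenylate synthetases, which activate RNase L, rose by 1.69 and 1.44 on the log2 scale, Oas1g from 2.44, 1.90, 2.67 and 3.59 to 10.1, 5.55, 8.70 and 5.48 CPM. Ddx58, the RNA sensor RIG-I, rose from 50.8, 48.6, 55.99 and 58.1 to 83.9, 75.6, 123.1 and 75.3 CPM (0.72 ± 0.10, adjusted p = 0.00322) and Ms4a4c from 61.97 ± 14.9 to 112 ± 30.96 CPM. The calls of Isg15, Ddx58 and Ms4a4c were held in all 8 fits. Mx1 (chromosome 16, 97447035 to 97462907), an antiviral dynamin-like GTPase, went the other way in all 4 pairs, from 114, 111, 67.99 and 80.5 to 80.7, 65.9, 49.8 and 60.7 CPM (-0.53 ± 0.09, adjusted p = 0.00729), and was held in all 8 fits too. Leaving out healthy replicates 1 to 4 in turn, 8, 15, 3 and 46 members of the type I list were higher, and leaving out tumor-draining replicates 1 to 4, 10, 20, 17 and 29.

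Sensors that act upstream of interferon and cytokines rose in part. Of 31 pattern recognition receptors and adaptors 11 were higher (35.5%, against 4.02% of all genes) and 1, Nlrp1b, lower (3.23%, against 2.28%). Nlrp1b differed by -0.42, and the median over the 31 was 0.28. Tmem173, which encodes STING, the adaptor of cytosolic DNA sensing, stood at 77.1, 69.2, 119 and 114 CPM in healthy and 124, 112, 185 and 162 CPM in tumor-draining libraries (0.63 ± 0.07, adjusted p = 0.00133). Nod1, a sensor of bacterial peptidoglycan, rose from 35.4, 41.1, 48.2 and 56.4 to 67.9, 68.2, 96.7 and 80.2 CPM without overlap (0.79 ± 0.10, adjusted p = 0.00272). Tlr1, which pairs with Tlr2 on lipoproteins, rose from 52.1 ± 3.56 to 87.9 ± 20.5 CPM and Myd88, the adaptor of most Toll-like receptors, from 68.2 ± 16.9 to 116 ± 32.3 CPM. All 4 were held in all 8 fits, over which the list gave 5 to 10 higher members, with 5 without healthy replicate 1 or 3 or tumor-draining replicate 1. Nfkb1, the NF-kB p50 precursor, rose from 426 ± 124 to 601 ± 154 CPM (0.51 ± 0.07, adjusted p = 0.004). Of 33 NF-kB subunits and regulators 2 were higher (6.06%) and 1 lower (3.03%), near the shares of all genes, 4.02% and 2.28%.

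Of 32 genes of the JAK, STAT and SOCS list 11 were higher (34.4%, against 4.02% of all genes) and none lower, with a median of 0.19. Without healthy replicate 3, 4 were higher. Ptpn1, a phosphatase that dephosphorylates JAK kinases, rose from 102, 129.5, 168 and 171 to 177, 171, 292 and 249 CPM (0.63 ± 0.08, adjusted p = 0.00272), Jak3 from 48.7 ± 5.74 to 73.1 ± 7.99 CPM, Stat4 from 38.1 ± 7.17 to 61.4 ± 12.3 CPM and Bcl3, a nuclear partner of NF-kB, from 44.5 ± 11.3 to 67.6 ± 13.7 CPM. Each was held in all 8 fits. Of 34 tested genes of the interleukin list, Il1rn and Osm (0.82) were higher (5.88%) and Il23r lower (2.94%), shares near those of all genes, 4.02% and 2.28%. Of 36 chemokine ligands Cxcl2, Ccl20 (2.79) and Ccl17 (0.50) were higher (8.33%) and none lower, while the median was -0.145 and 16 had a positive log2 difference. Ccl20 was at 0.0489, 0, 0.0382 and 0 CPM in healthy and 0.184, 0.0867, 0.405 and 0 CPM in tumor-draining libraries, so its change rests on few counts. Over the 8 fits 0 to 4 ligands were higher and 0 to 5 lower.

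Inhibitory ligands were among the rises held in all 8 fits. Cd274 (chromosome 19, 29367455 to 29388095), which encodes PD-L1, stood at 66.2, 74.3, 74.9 and 68.5 CPM in healthy and 119, 108, 136 and 101 CPM in tumor-draining replicates (0.70 ± 0.08, adjusted p = 0.00144). Pdcd1lg2, PD-L2, rose from 19.7, 19.1, 24.3 and 22.5 to 35.5, 26.8, 44.3 and 35.96 CPM (0.73 ± 0.09, adjusted p = 0.00272). Cd200, the ligand of an inhibitory receptor on myeloid cells, rose from 28.2, 29.5, 24.8 and 20.6 to 39.9, 44.8, 46.2 and 37.7 CPM (0.71 ± 0.09, adjusted p = 0.00272). In none of the 3 did the groups overlap, all were held in all 8 fits, and Cd274 and Cd200 were also called without the block (adjusted p = 0.0436 and 0.0475). Of the 32 genes of the checkpoint list 9 were higher (28.1%, against 4.02% of all genes) and 3 lower (9.38%, against 2.28%), with a median of 0.20. The 3 lower genes were Cd96 (-0.90) and Cd226 (-0.70), lymphocyte receptors that bind nectin-like ligands, and their ligand Pvr (-0.42). Cd80, a ligand of CD28 and CTLA-4, rose by 0.46.

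**Figure D2:**
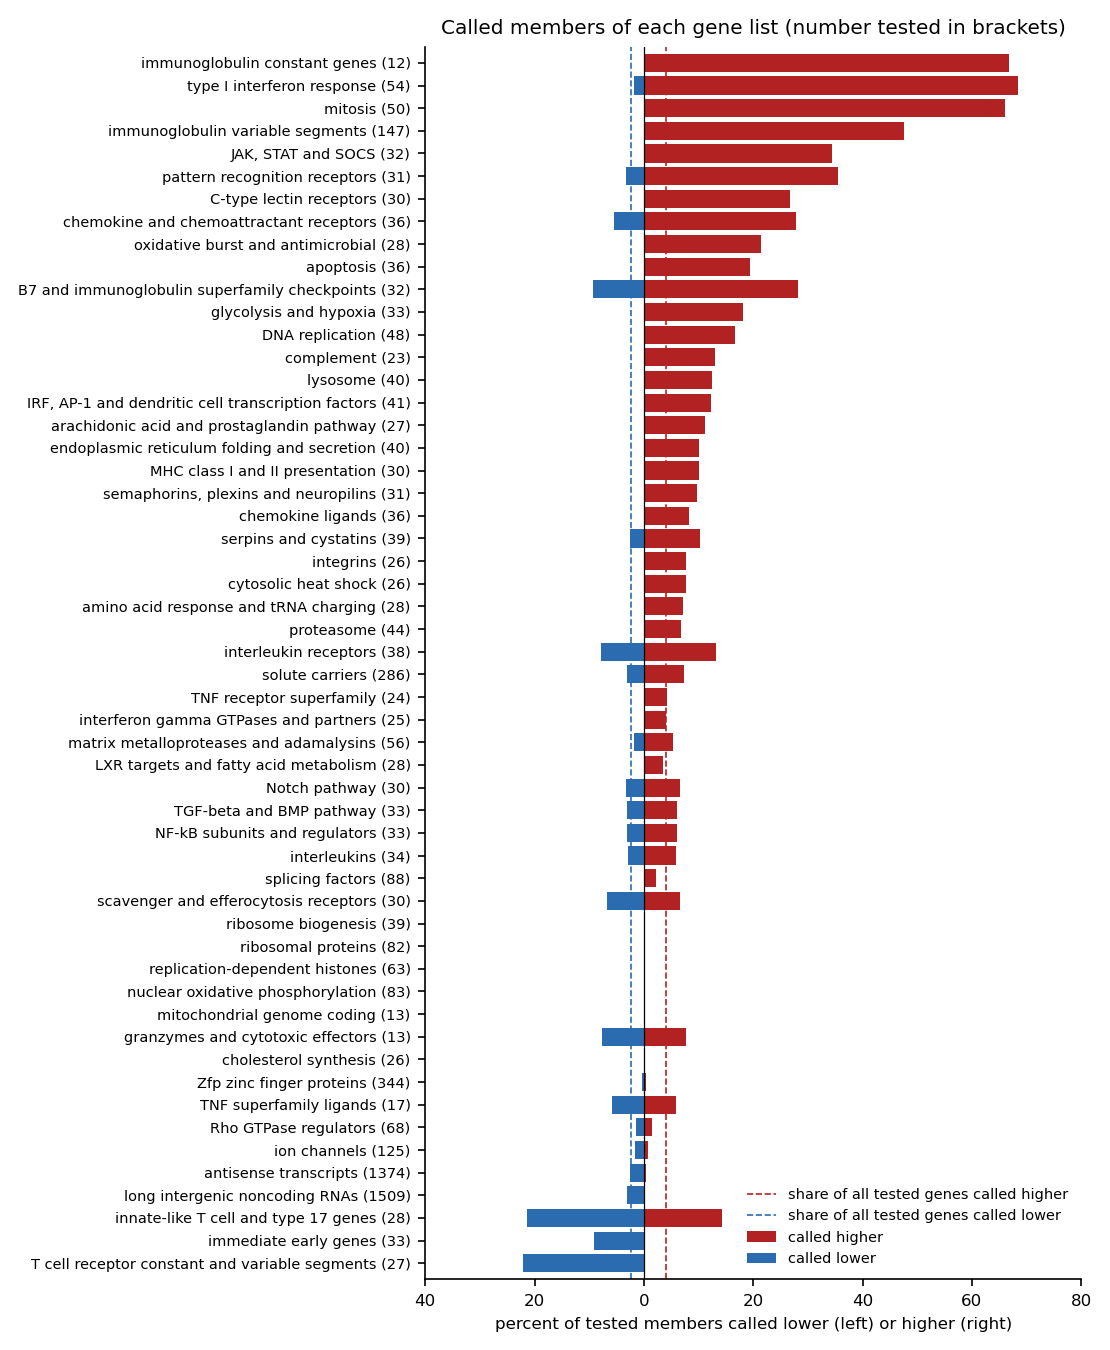
Percent of the tested members of each gene list called higher (red, right) or lower (blue, left) in tumor-draining nodes, with dashed lines at the shares of all tested genes, 4.02% higher and 2.28% lower. Immunoglobulin, type I interferon and mitosis lists stand far past the line on the right and T cell receptor segments on the left, while ribosomal, oxidative phosphorylation, histone and cholesterol lists have no called member.

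Several granulocyte genes rose from low levels. Of 13 neutrophil markers that passed the filter, of 15 listed, 6 were higher (46.2%, against 4.02% of all genes) and none lower. The summed level of all 15 listed went from 40.8 to 56.6 CPM in healthy to 65.8 to 253.5 CPM in tumor-draining libraries, highest in replicate 3. Retnlg, a resistin-like protein of neutrophils, was at 0.0244, 0.224, 0.535 and 0.209 CPM in healthy and 3.08, 5.33, 17.5 and 1.43 CPM in tumor-draining libraries (4.60 ± 0.47, adjusted p = 0.0024). In healthy replicate 1 it held about 1 count, so the size of the change rests on few counts. Csf3r, which binds the growth factor of granulocytes, rose from 12.3, 14.4, 13.5 and 17.04 to 29.2, 27.7, 47.9 and 24.9 CPM and Cxcr2, the receptor of Cxcl2, from 7.92, 14.1, 10.2 and 10.4 to 13.8, 20.9, 30.2 and 18.6 CPM. The list gave 2 to 6 higher members over the 8 fits, 2 without healthy replicate 3 and 5 without tumor-draining replicate 3.

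Prg2 (chromosome 2, 84980461 to 84983632), the major basic protein of eosinophil granules, had the smallest p-value of all genes tested, at 0.293, 0.224, 0.382 and 0.250 CPM in healthy and 2.50, 2.95, 6.09 and 2.16 CPM in tumor-draining libraries (3.51 ± 0.26, adjusted p = 0.000365). The groups did not overlap, and the call was made in all 8 fits and without the block (adjusted p = 0.0181). Siglecf, a lectin of eosinophils, rose from 1.56, 2.18, 4.68 and 3.96 to 7.56, 7.005, 13.7 and 6.59 CPM, a call made in 1 of the 8 fits. The other 4 tested eosinophil markers did not pass. The summed level of all 8 listed was 58.9 to 121 CPM in healthy and 59.0 to 122 CPM in tumor-draining libraries. Of 8 tested mast cell and basophil markers 2 were higher (25%, against 4.02% of all genes): Kit (0.33) and Hdc, the enzyme that makes histamine. Hdc rose from 2.59, 1.57, 1.93 and 1.59 to 6.54, 6.46, 8.81 and 2.50 CPM. Only these 2 of the 8 had a positive log2 difference, and the median was -0.69, although the sum of all 12 listed markers was higher in all 4 pairs.

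Several receptors that draw myeloid cells to sites of damage rose. Fpr2 (chromosome 17, 17887824 to 17893952), a receptor of formylated peptides, was at 1.61, 0.812, 1.13 and 0.939 CPM in healthy and 8.08, 2.69, 7.46 and 3.14 CPM in tumor-draining libraries (2.16 ± 0.18, adjusted p = 0.000548), and C5ar1, the receptor of complement fragment C5a, at 0.684, 0.168, 0.688 and 0.480 CPM in healthy and 4.94, 2.13, 8.64 and 1.11 CPM in tumor-draining libraries (2.86 ± 0.38, adjusted p = 0.00495). Both were without overlap and were held in all 8 fits. Ccr6, the receptor of Ccl20, rose from 5.57, 5.85, 7.87 and 5.92 to 13.96, 11.5, 20.2 and 9.57 CPM (1.09 ± 0.12, adjusted p = 0.0014), and Gpr183, the oxysterol receptor that places dendritic cells in the node, from 131, 94.1, 156 and 128 to 197, 145, 189 and 179 CPM (0.49 ± 0.07, adjusted p = 0.00447). Of 36 chemokine and chemoattractant receptors 10 were higher (27.8%, against 4.02% of all genes) and 2 lower (5.56%, against 2.28%), Cxcr6 and Ccr10 (-1.78). The median was 0.16, and 5 were higher without healthy replicate 3. The neutrophil marker sums given above moved with these receptors, and their part in the result was not tested.

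Among dendritic cell classes, calls fell mostly on markers of type 2 cells. Of 13 type 2 markers 6 were higher (46.2%, against 4.02% of all genes) and none lower, with a median of 0.05: Clec4a4, Sirpa, Itgam, Cd300a, Clec4a2 and Ltb. Clec4a4 (chromosome 6, 122990367 to 123024105), the inhibitory lectin DCIR2, stood at 4.37, 3.11, 5.65 and 4.67 CPM in healthy and 17.5, 20.5, 23.4 and 9.48 CPM in tumor-draining libraries (1.91 ± 0.29, adjusted p = 0.0113), and Itgam, CD11b, at 78.1, 66.6, 97.5 and 93.6 CPM in healthy and 132, 92.4, 223 and 127 CPM in tumor-draining libraries (0.71 ± 0.12, adjusted p = 0.00937). The summed type 2 level was higher in all 4 pairs, from 1689 to 2513 CPM in healthy and 2016 to 2909 CPM in tumor-draining libraries. Most of that rise lay in 1 gene: the mean of the sum went from 2131 to 2528 CPM and that of Sirpa from 630 to 1019 CPM. Of the 13 markers 8 had a positive log2 difference. Of 14 type 1 markers 1, Hepacam2, was lower (7.14%, against 2.28% of all genes) and 13 had a negative log2 difference. The sum, 3909 to 6639 and 3218 to 6402 CPM, was lower in all 4 pairs. An exact two-sided sign-flip test over 4 pairs cannot go below a p of 1 in 8, the value both sums reached. Of 12 monocyte markers Csf1r (0.42) and Ms4a6c (0.35) were higher (16.7%, against 4.02% of all genes), and 10 had a positive log2 difference. The monocyte sum, 1198 to 1733 CPM in healthy and 1408 to 2151 CPM in tumor-draining libraries, was higher in all 4 pairs, as was the neutrophil sum given above. Itgam is also carried by monocytes and neutrophils, and the part of these cells in the type 2 result was not tested. Without tumor-draining replicate 3, 5 type 2 markers were higher, and without healthy replicate 1 or 3, 2 were. Of 16 markers of migratory and mature dendritic cells 2 were higher, Ccl17 and Cd200 (12.5%, against 4.02% of all genes), and none lower. Only 5 of the 16 had a positive log2 difference, with a median of -0.12. Their sum, 6700 to 9229 CPM in healthy and 5179 to 8029 CPM in tumor-draining libraries, was higher in 1 of 4 pairs.

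Some C-type lectin receptors of myeloid cells rose, by up to 1.91. Of 30 tested 8 were higher (26.7%, against 4.02% of all genes) and none lower, although the median over the 30 was -0.015. Clec5a, a receptor of flaviviruses, was at 13.2, 14.8, 12.4 and 12.6 CPM in healthy and 22.1, 21.4, 41.3 and 20.4 CPM in tumor-draining libraries, and Clec4d, which binds mycobacterial glycolipid, at 2.03, 1.57, 1.39 and 0.959 CPM in healthy and 4.16, 3.38, 4.51 and 1.34 CPM in tumor-draining libraries. Over the 8 fits 0 to 8 lectins were higher, with 0 without healthy replicate 1 and 1 without healthy replicate 3 or tumor-draining replicate 1. Macrophage genes split. Cd5l, an apoptosis inhibitor secreted by tissue macrophages, rose from 6.55, 4.96, 5.16 and 6.63 to 19.8, 13.9, 13.7 and 9.61 CPM (1.25 ± 0.18, adjusted p = 0.00704), whereas Marco, a scavenger receptor of medullary and marginal macrophages, fell from 44.7, 36.2, 37.6 and 43.4 to 27.6, 21.2, 17.1 and 26.8 CPM (-0.81 ± 0.18, adjusted p = 0.0353). Neither overlapped between groups, and the call of Marco was made in 1 of the 8 fits. Clec4f, another listed macrophage marker, was at 0 in all 8 libraries. Kdr (chromosome 5, 75932827 to 75978458), a receptor of vascular endothelial growth factor, rose from 31.9, 29.5, 60.8 and 65.6 to 63.6, 77.6, 132 and 107 CPM (1.05 ± 0.10, adjusted p = 0.000793), while none of the other 11 blood endothelial markers passed.

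The immunoglobulin lists had the largest median log2 differences of all lists described here. Plasma cells and plasmablasts secrete antibody, and class switching replaces the mu constant region by a gamma, alpha or epsilon one. Ighg1 (chromosome 12, 113325240 to 113330523), the IgG1 constant gene, was at 0.928, 4.17, 5.08 and 0.730 CPM in healthy and 77.1, 93.7, 401 and 168 CPM in tumor-draining libraries (6.05 ± 0.71, adjusted p = 0.00965). Ighg2c was at 2.37, 3.30, 5.64 and 1.90 CPM in healthy and 34.1, 38.9, 265 and 89.4 CPM in tumor-draining libraries (4.66 ± 0.55, adjusted p = 0.00896), and Ighg2b at 4.94, 5.66, 9.63 and 2.44 CPM in healthy and 66.2, 47.04, 293 and 73.7 CPM in tumor-draining libraries. The groups were far apart in all 3, and replicate 3 was the highest of the tumor-draining libraries. Igkc, the kappa light chain constant gene, rose from 58.03, 78.2, 108 and 56.1 to 197, 202, 645 and 280.0 CPM and Ighm from 341, 521, 659 and 526 to 433, 635, 1203 and 915 CPM. Ighd, the delta chain of naive B cells, was at 42.7, 84.8, 102 and 48.8 CPM in healthy and 38.6, 76.9, 96.97 and 65.9 CPM in tumor-draining libraries and did not pass (adjusted p = 0.996). Of 12 constant genes 8 were higher (66.7%, against 4.02% of all genes) and none lower, with a median log2 difference of 1.99. Leaving out healthy replicates 1 to 4 in turn left 5, 7, 0 and 7 of them higher, and leaving out tumor-draining replicates 1 to 4, 4, 6, 4 and 6.

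The variable segments moved together with the constant genes. Of 218 listed segments, 147 passed the filter on low counts, which a segment can pass through the group where it is high. All 147 had a positive log2 difference, 70 were higher (47.6%, against 4.02% of all genes) and none lower. The summed level of all 218 listed segments went from 52.1 to 114 CPM in healthy to 197 to 749 CPM in tumor-draining libraries. Igkv6-15 was at 1.12, 1.29, 2.01 and 1.54 CPM in healthy and 4.64, 3.45, 9.49 and 6.36 CPM in tumor-draining libraries (1.95 ± 0.17, adjusted p = 0.000548) and was held in all 8 fits. Reads of near-identical segments are divided by a model in these counts, so single segments are less certain than their sum. The list gave 28 to 60 higher members over the 8 fits, with 28 without healthy replicate 3, and 8 without the block.

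The form of the mu chain differed as well. Of the Ighm counts assigned to the secreted form (4 exons) or the membrane form (6 exons), the secreted share was 22.2, 19.1, 23.3 and 22.3% in healthy replicates 1 to 4 and 36.3, 37.3, 54.9 and 40.5% in tumor-draining replicates 1 to 4, 21.7% ± 1.83 against 42.3% ± 8.62 (SD, n = 4). The groups did not overlap, and in all 4 pairs the tumor-draining share was the higher, which gives the smallest p of an exact sign-flip test over 4 pairs, 1 in 8. These shares rest on 13973 to 62387 counts a library. For Ighg2b the secreted share was 71.2% ± 15.1 in healthy and 89.2% ± 3.60 in tumor-draining libraries, from 116 to 504 counts a healthy library. For Ighg1 it was 58.5% ± 35.5 and 91.9% ± 2.90 and for Ighg2c 80.7% ± 18.9 and 97.4% ± 0.942. In both the groups overlapped, and as few as 35 and 92 counts lay behind a healthy library.

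Several genes of antibody-secreting cells rose too. Mzb1, a chaperone of immunoglobulin assembly, rose from 3.79, 4.79, 5.31 and 4.88 to 13.3, 10.5, 19.5 and 12.3 CPM (1.52 ± 0.17, adjusted p = 0.00145), without overlap and in all 8 fits. Of 13 plasma cell markers 7 were higher (53.8%, against 4.02% of all genes) and none lower, and without healthy replicate 3, 2 were higher. The 7 include Jchain, described above, and Ighg1, Ighg2c, Ighm and Igha, already counted among the constant genes. Their share is therefore not separate from the immunoglobulin result. Of 11 germinal center markers 3 were higher (27.3%, against 4.02% of all genes) and none lower. Nuggc, a nuclear GTPase, rose from 0.147, 0.392, 0.478 and 0.167 to 0.230, 1.06, 2.02 and 1.39 CPM. But the sum of the germinal center markers was lower in 3 of 4 pairs, 345 to 431 CPM in healthy and 329 to 495 CPM in tumor-draining libraries. Over the 8 fits 0 to 3 of them were higher, with none without healthy replicate 3. Of 13 B cell markers 3 were higher (23.1%, against 4.02% of all genes), among them Cd22 (0.61) and Spib (0.53), and none lower. The B cell sum was higher in all 4 pairs, 454 to 820 against 585 to 949 CPM. The part of B cell and plasma cell RNA in the immunoglobulin result was not tested.

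**Figure D3:**
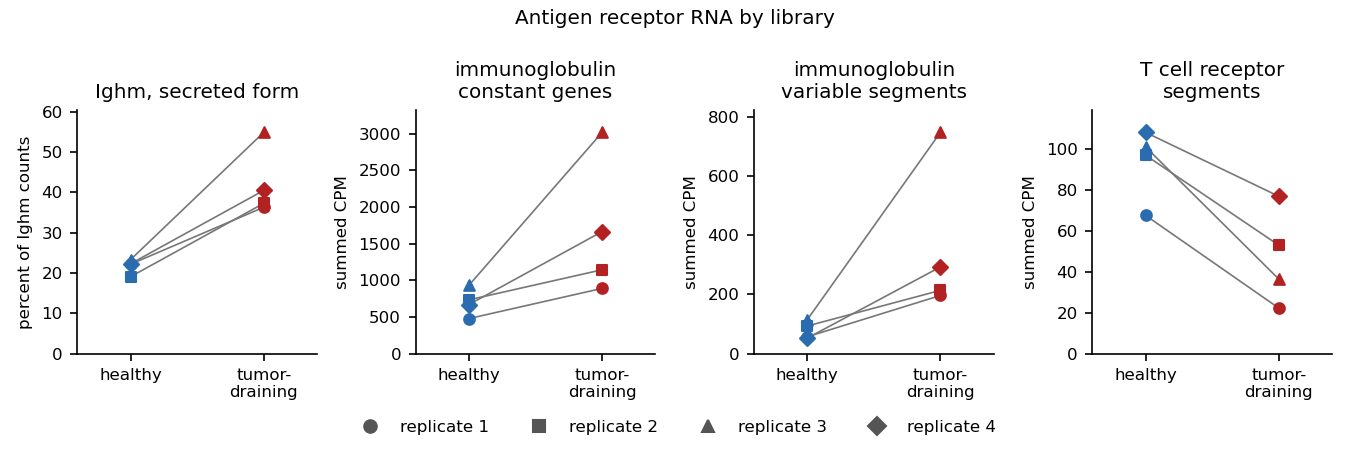
From left to right, the secreted share of Ighm counts in percent and the summed CPM of immunoglobulin constant genes, immunoglobulin variable segments and T cell receptor segments, 1 point a library, with lines joining libraries that share a title prefix. Every line rises in the first 3 panels, steepest for replicate 3, and every line falls in the fourth.

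T cell receptor RNA went the opposite way. Summed over constant and variable segments it was 67.7, 97.1, 101 and 108 CPM in healthy replicates 1 to 4 and 22.3, 53.1, 36.5 and 77.0 CPM in tumor-draining replicates, lower in all 4 pairs. Of 137 listed segments 27 passed the filter on low counts, which a segment can pass through the group where it is high. None of the 27 had a positive log2 difference, and 6 were lower (22.2%, against 2.28% of all genes). Tcrg-C2 (chromosome 13, 19304649 to 19307551), a gamma chain constant gene, was at 1.93, 1.26, 2.43 and 0.980 CPM in healthy and 0.138, 0.217, 0.116 and 0.295 CPM in tumor-draining libraries (-3.14 ± 0.44, adjusted p = 0.0038). It was without overlap, held in all 8 fits and called without the block (adjusted p = 0.0253). Trbc2, a beta chain constant gene, was at 22.3, 34.3, 30.1 and 37.04 CPM in healthy and 6.96, 18.4, 12.5 and 25.8 CPM in tumor-draining libraries (-1.06 ± 0.21, adjusted p = 0.0272). Leaving out healthy replicates 1 to 4 in turn left 1, 2, 1 and 10 segments lower, and leaving out tumor-draining replicates 1 to 4, 2, 4, 1 and 5.

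Several genes of type 17 and innate-like lymphocytes fell. Il23r, a receptor that sustains interleukin 17 producing cells, fell from 5.52, 7.06, 4.55 and 4.13 to 2.92, 2.21, 1.83 and 2.32 CPM (-1.18 ± 0.16, adjusted p = 0.0028), and Il18r1 from 17.7, 19.2, 25.5 and 22.9 to 7.46, 10.04, 11.5 and 18.3 CPM. Il23r did not overlap between groups. Of 12 markers of gamma delta T and innate lymphoid cells 5 were lower (41.7%, against 2.28% of all genes) and none higher, with a median of -1.38. Without the block 3 were lower. Of the 28 genes of the innate-like and type 17 list 6 were lower (21.4%) and 4 higher (14.3%, against 4.02% of all genes). Among the 4 were Ccr6 and Ltb (0.81), which dendritic cells also express.

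Of 17 T cell markers 9 were lower (52.9%, against 2.28% of all genes) and 1 higher (5.88%, against 4.02%), with a median of -0.86. Thy1 fell from 19.5 ± 6.05 to 10.97 ± 5.41 CPM and Lef1, a transcription factor of naive T cells, from 13.9 ± 3.25 to 7.84 ± 3.06 CPM. Tcf7, the related factor TCF-1, rose from 30.2, 45.8, 43.9 and 48.8 to 52.4, 56.6, 75.9 and 63.5 CPM, without overlap. Cd4 and Cd8a, which some dendritic cells also carry, were at 218 ± 62.6 and 291 ± 73.8 CPM in healthy and 233 ± 62.5 and 237 ± 87.7 CPM in tumor-draining libraries and did not pass. Without healthy replicates 1 to 4 in turn, 4, 2, 1 and 10 T cell markers were lower, and without tumor-draining replicates 1 to 4, 3, 4, 3 and 6. Tbx21, T-bet, rose from 4.85 ± 2.43 to 9.29 ± 3.54 CPM, as the 1 natural killer cell marker of 13 to pass (7.69%, against 4.02% of all genes). Its call was made in 4 of the 8 fits. Of the 13 markers 3 had a positive log2 difference, and the median was -0.57.

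Most listed genes of mitosis rose. Of 50 mitosis genes 33 were higher (66%, against 4.02% of all genes) and none lower. All 50 had a positive log2 difference, and the median was 0.56, against -0.02 over all genes. Mitotic genes are switched on late in the cycle by complexes that bind the CHR element, here searched as TTTGAA, and CCAAT boxes, bound by NF-Y. Promoters of a cyclin and of a mitotic checkpoint gene are shown because both carry CCAAT more than once and the second also carries TTTGAA (150 bases upstream, RefSeq, GRCm38.p6, capitals mark the matches).
Ccnb2 (chr9:70421555-70421704, minus strand): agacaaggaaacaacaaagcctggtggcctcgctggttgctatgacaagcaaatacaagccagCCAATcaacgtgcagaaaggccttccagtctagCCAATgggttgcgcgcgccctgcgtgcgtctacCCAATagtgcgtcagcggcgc
Cdc20 (chr4:118437344-118437493, minus strand): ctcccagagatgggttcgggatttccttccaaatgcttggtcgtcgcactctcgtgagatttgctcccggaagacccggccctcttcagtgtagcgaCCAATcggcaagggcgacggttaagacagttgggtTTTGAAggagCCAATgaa
Ccnb2 holds CCAAT at 87, 54 and 21 bases before the start and no TTTGAA in this window. Cdc20 holds CCAAT at 53 and 8 bases with TTTGAA at 18 bases. Over 250 bases upstream and both strands, CCAAT was in 25 of 31 promoters of the called mitosis genes (80.6%) and in 33.8% of all promoters, and TTTGAA in 15 of 31 (48.4%) and in 16% of all. In the DNA replication list CCAAT was in 58.3% and TTTGAA in 14.6% of 48 promoters.

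Kif20a (chromosome 18, 34624613 to 34633277), the kinesin of the cleavage furrow, stood at 11.97, 18.7, 36.1 and 34.5 CPM in healthy and 27.8, 33.5, 59.8 and 50.4 CPM in tumor-draining libraries (0.82 ± 0.13, adjusted p = 0.00802). Cenpf, a kinetochore protein, stood at 16.3, 21.4, 36.1 and 31.6 CPM in healthy and 28.6, 39.4, 65.4 and 41.003 CPM in tumor-draining libraries (0.73 ± 0.11, adjusted p = 0.00617), Ccnb2 at 10.9, 11.6, 24.4 and 24.3 CPM in healthy and 18.7, 26.8, 39.9 and 31.1 CPM in tumor-draining libraries and Cdc20 at 8.19, 12.7, 20.7 and 21.7 CPM in healthy and 15.04, 20.3, 31.4 and 26.9 CPM in tumor-draining libraries. In each gene every tumor-draining library was above its partner, while the groups overlapped, and within each group replicates 3 and 4 were higher than replicates 1 and 2. The calls of Kif20a, Cenpf, Kif2c (0.69) and Prc1 (0.65) were held in all 8 fits and none was made without the block. Leaving out healthy replicates 1 to 4 in turn left 6, 9, 6 and 43 mitosis genes higher, and leaving out tumor-draining replicates 1 to 4, 8, 12, 7 and 16.

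Of 48 replication genes 8 were higher (16.7%, against 4.02% of all genes) and none lower, with a median of 0.26. Over the 8 fits 2 to 27 were higher, with 27 without healthy replicate 4. Those that rose include Uhrf1, which guides maintenance methylation (86.7 ± 29.3 to 124 ± 33.02 CPM), and Ccne1, the cyclin of S phase entry (5.23 ± 1.60 to 8.68 ± 1.61 CPM). None of 63 replication-dependent histone genes passed, although 61 had a positive log2 difference with a median of 0.45. By unadjusted p under 0.05, 19 histone genes differed, and DESeq2 called 17. The immunoglobulin sums given above were higher in the same 4 pairs, and their part in the rise of division genes was not tested.

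Metabolic genes changed in few places. Fabp5 (chromosome 3, 10012548 to 10016607), a fatty acid carrier, rose from 141, 117, 140.4 and 142 to 394, 253, 382 and 242 CPM (1.20 ± 0.11, adjusted p = 0.00109), without overlap, in all 8 fits and without the block (adjusted p = 0.0253). It was the only called gene of 28 LXR targets and fatty acid genes (3.57%, near the 4.02% of all genes called higher). None of 26 cholesterol synthesis genes was called (1 at an unadjusted p under 0.05, 0 by DESeq2). Of 33 glycolysis and hypoxia genes 6 were higher (18.2%, against 4.02% of all genes) and none lower. Among the 6 were Eno1, enolase (209, 239, 329 and 329 to 333, 291, 576 and 424 CPM), Gapdh (314 ± 74.8 to 426 ± 112 CPM) and Hif1a, the hypoxia-inducible factor (135, 147, 167 and 144 to 169, 176, 278 and 195 CPM, without overlap). Over the 8 fits 0 to 8 of that list were higher, with 0 without healthy replicate 3. Slc7a5, the large neutral amino acid transporter, rose from 19.1, 27.5, 36.6 and 41.1 to 54.4, 43.3, 83.5 and 52.3 CPM without overlap. Of 286 solute carriers 21 were higher (7.34%, against 4.02% of all genes) and 9 lower (3.15%, near the 2.28% of all genes). Over the 8 fits 6 to 23 were higher and 1 to 11 lower, the most in both directions without healthy replicate 4. Scn3a (chromosome 2, 65457118 to 65567627), a voltage-gated sodium channel, was called in all 8 fits, at 15.5, 15.7, 18.9 and 19.8 CPM in healthy and 34.95, 45.9, 42.6 and 30.7 CPM in tumor-draining libraries (1.12 ± 0.13, adjusted p = 0.00214). Of 125 ion channel genes it was the only one higher (0.8%, against 4.02% of all genes). Another 2 were lower (1.6%, against 2.28%), and the median over the 125 was -0.151.

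Several housekeeping groups had no called member: 83 nuclear genes of oxidative phosphorylation, 82 ribosomal proteins, 39 ribosome biogenesis genes and 13 coding genes of the mitochondrial genome. At an unadjusted p under 0.05, 30, 4, 8 and 0 of them differed, and the count by DESeq2 was 10, 0, 3 and 0. Of the oxidative phosphorylation genes 81 had a positive log2 difference, with a median of 0.19. Among 344 zinc finger proteins named Zfp, 1 was higher and 1 lower, below the share of all genes in each direction.

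**Figure D4:**
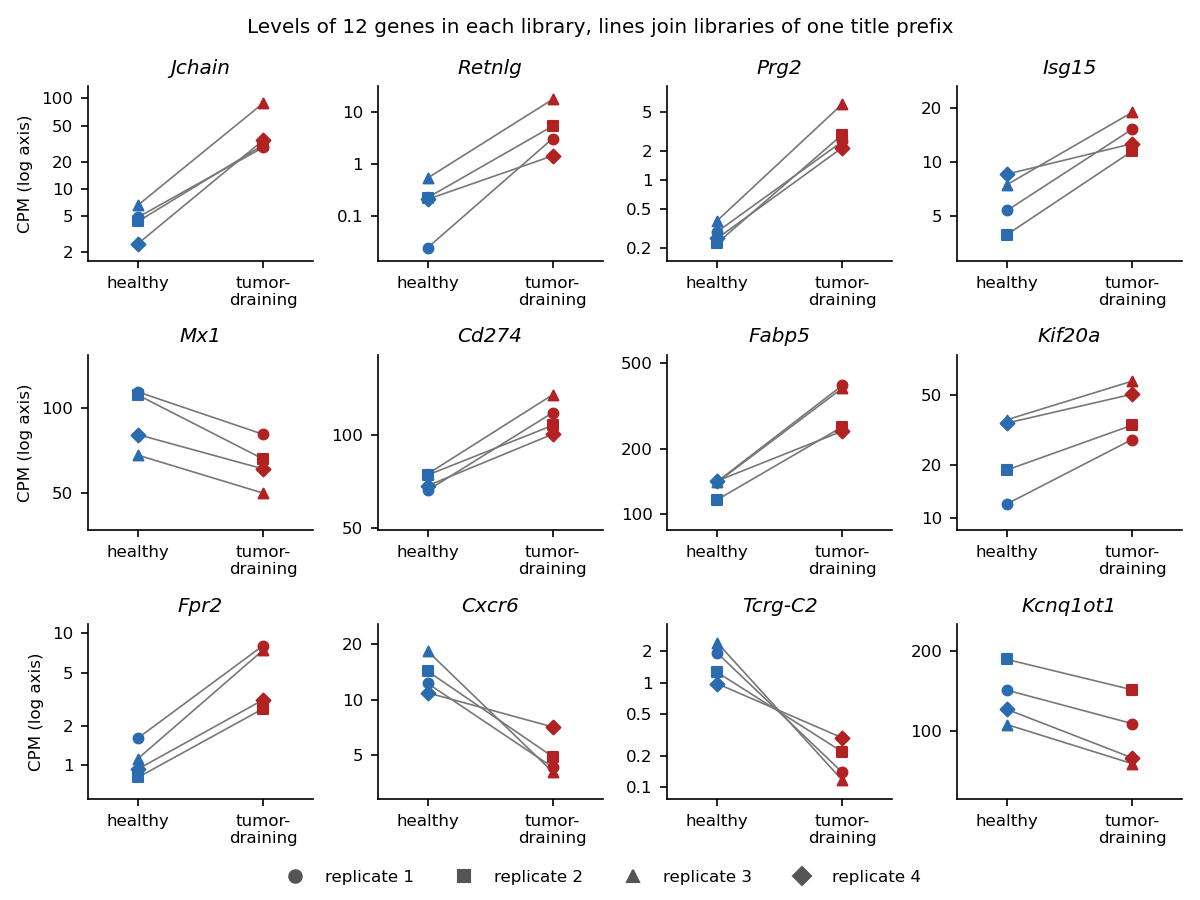
CPM on a log axis of 12 genes in each library, healthy in blue and tumor-draining in red, with lines joining libraries of the same title prefix. Jchain, Retnlg, Prg2, Isg15, Cd274, Fabp5, Kif20a and Fpr2 rise along every line, while Mx1, Cxcr6, Tcrg-C2 and Kcnq1ot1 fall along every line.

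More noncoding genes were called lower than higher. Of 1509 long intergenic noncoding RNAs 48 were lower (3.18%, against 2.28% of all genes) and 4 higher (0.265%, against 4.02%). Of 1374 antisense transcripts 36 were lower (2.62%) and 4 higher (0.291%). Their median log2 differences were -0.32 and -0.31, close to the -0.32 and -0.26 of all genes in the 2 groups of lowest mean level. Gene models of the GENCODE class TEC, unspliced transcripts that await experimental evidence, fell in 135 of 1867 cases (7.23%, against 2.28% of all genes) and rose in 4. Malat1 (chromosome 19, 5795690 to 5802672), a nuclear RNA of splicing speckles, was at 21983, 22495, 7965 and 8467 CPM in healthy and 16035, 11488, 4528 and 6635 CPM in tumor-draining replicates 1 to 4 (-0.65 ± 0.12, adjusted p = 0.0122). Each tumor-draining library was below its partner, but replicates 1 and 2 of both groups lay above replicates 3 and 4. Neat1, the scaffold of paraspeckles, Xist, the RNA that silences an X chromosome, and Kcnq1ot1, which silences an imprinted cluster, fell by 0.49, 0.38 and 0.47 on the log2 scale, and of these Kcnq1ot1 was held in all 8 fits. So were Gm10432 (21.8 ± 8.66 to 10.9 ± 3.79 CPM) and Gm26603 (27.9 ± 13.3 to 16.04 ± 7.73 CPM), noncoding genes of chromosomes 12 and 2. A630001O12Rik, a long intergenic RNA on chromosome 8, was an exception that rose from 1.83, 1.23, 1.32 and 1.5 to 3.95, 2.73, 3.91 and 2.59 CPM without overlap.

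Several noncoding classes took a lower share of the counts in every pair, whereas pseudogenes and processed transcripts were each higher in 1 of 4 pairs. Long intergenic noncoding RNAs took 3.80%, 4.32%, 2.48% and 2.17% of the counts of healthy replicates 1 to 4 and 3.03%, 2.88%, 1.45% and 1.56% of those of tumor-draining replicates. Transcripts annotated with a retained intron took 6.92%, 6.58%, 4.66% and 5.11% in healthy and 6.40%, 5.87%, 4.30% and 4.55% in tumor-draining libraries. Sense intronic transcripts took 0.0486% to 0.0908% in healthy and 0.0381% to 0.0695% in tumor-draining libraries, lower in all 4 pairs. Each of these reached the smallest p that an exact sign-flip test over 4 pairs can give, 1 in 8, and in each the groups overlapped. The kit keeps strand, but the sources used here do not say whether counting used strand, so that reads of antisense genes and their partners cannot be told apart. Fewer noncoding calls followed when a library was left out: 8, 12, 5 and 37 lower long intergenic RNAs without healthy replicates 1 to 4 and 18, 12, 13 and 15 without tumor-draining replicates 1 to 4. The share of retained-intron transcripts moved with these calls, and its part in them was not tested.

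**Figure D5:**
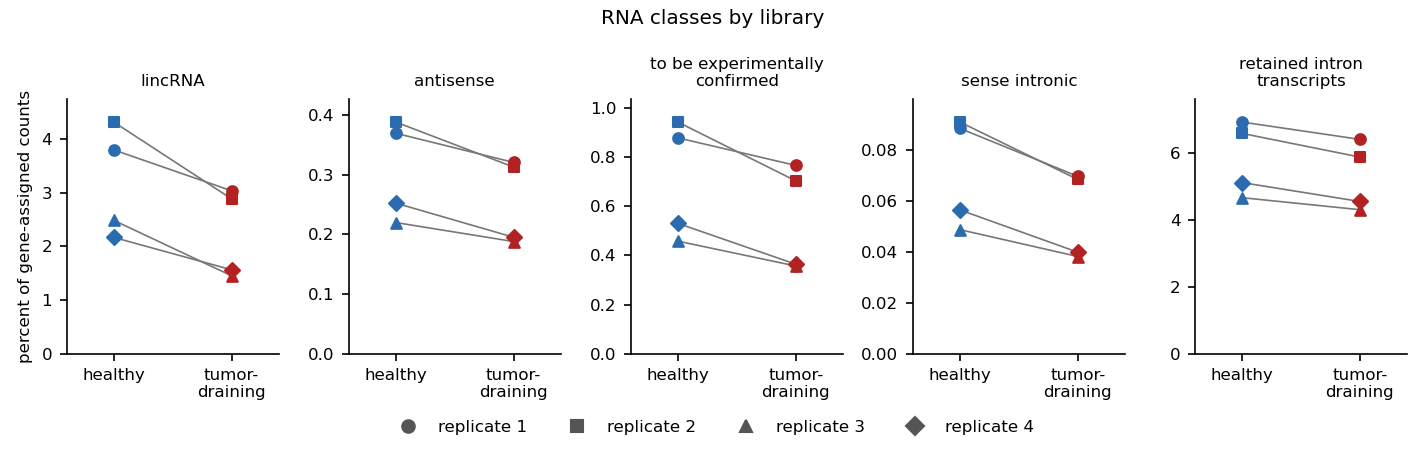
Percent of gene-assigned counts in 4 noncoding gene classes and in transcripts annotated with a retained intron, 1 point a library, with lines joining libraries of the same title prefix. Every line falls from healthy to tumor-draining, and replicates 1 and 2 lie above replicates 3 and 4 in each panel.

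Some called genes lay side by side in the genome. Among tested protein coding genes in chromosome order, 18 runs of at least 3 neighbours called in the same direction held 62 genes, and 17 of the runs were higher (GENCODE M21, GRCm38). On chromosome 7 the interferon-induced transmembrane genes Ifitm2, Ifitm1, Ifitm3 and Ifitm6 all rose (140954837 to 141017924), Ifitm2 from 48.2, 31.3, 67.8 and 59.5 to 102, 71.4, 133 and 86.03 CPM and Ifitm3 from 32.6, 17.02, 41.9 and 40.4 to 78.03, 51.7, 120.4 and 58.2 CPM, both in all 8 fits. On chromosome 19 the run from 29348599 to 29606829 held Plgrkt, Cd274, Pdcd1lg2 and Ric1, so that PD-L1 and PD-L2 rose with their neighbours, Plgrkt by 0.34 and Ric1 by 0.38. Another run on chromosome 7 held the paired immunoglobulin-like receptors Pirb and Pira2 with Lilra6 and Lair1. The only lower run held 6 olfactory receptor genes and pseudogenes on chromosome 17 (37359582 to 37471590), where Olfr109 was at 17.5, 36.4, 7.58 and 8.32 CPM in healthy and 8.34, 10.5, 1.85 and 6.57 CPM in tumor-draining libraries and Olfr108 at 1.32, 4.84, 0.707 and 1.02 CPM in healthy and 0.574, 0.737, 0.116 and 0.318 CPM in tumor-draining libraries. Healthy replicate 2 was the highest library for both. Members of such clusters are near copies of one another, and counts divided between them by a model are uncertain one against another.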

How the data were processed

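RNA of CD11c cells from inguinal nodes was sequenced after extraction with a micro-column kit and preparation with a strand-keeping kit, per the labels' protocols. Per the submitters' processing notes, the authors quantified reads against mm10 with Salmon (version not given in the sources used). The authors deposited estimated counts and TPM per transcript. Estimated counts divide reads of similar transcripts by a model, so near-identical family members are uncertain. Of 132374 transcripts, 131974 matched GENCODE M21 (GRCm38) and were summed to 52355 genes, and the 400 others held 0.116% to 0.147% of counts. Gene sums were rounded.

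The main test was edgeR 4.0.16 (R 4.3.3) with TMM scaling, a minimum count of 10 in its filter, robust quasi-likelihood dispersion and a model of group plus title prefix over all 12 libraries (6 residual degrees of freedom). CPM are counts over TMM-scaled library totals, brought to a common size. SE were derived from the F statistic, and a call needs a Benjamini-Hochberg adjusted p under 0.05. The test was checked on simulated data. The pairing came from the title prefixes. Deviations from group means correlated at 0.444, 0.351, 0.422 and 0.473 between libraries of the same prefix and at -0.427 to 0.333 between those of different prefixes, highest between replicate 1 of the healthy and replicate 2 of the tumor-draining group. Within groups, no 2 libraries agreed within sampling noise (lowest chi-square per degree of freedom 27.7).

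Named genes were, among calls with 1 direction in all 4 pairs and a log2 CPM averaging 2 or more, the 15 largest rises and 15 largest falls, the 10 most abundant calls and the 5 noncoding calls of smallest p in each direction, up to 4 members of smallest p of each list, and Itgax, Flt3, Zbtb46 and Cd40. Predicted genes, pseudogenes and receptor segments were kept out of the largest and most abundant sets. Other genes, among them Ifit1, Rsad2, Ccnb2, Cdc20, Msln and members given beside a list's count, were picked with their values in view. The comparison and the gene lists were chosen with earlier results of these data known. Some genes that the rule names are not reported here. Alternatives were other scaling, filters, tools (DESeq2 1.42.0, limma 3.58.1), deposited TPM on a log2 scale (pseudocount 1 or 0.1), no block and left-out libraries. Promoter sequences are from RefSeq (GRCm38.p6).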

Additional observations from a re-analysis of the deposited data

Results flagged for a closer look

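In 16 of 326 groups of 4 libraries examined, 1 library stood far from the other 3. The groups covered genes chosen for this check, most of which the text describes, and library quantities such as shares of counts or summed levels. All 16 found were for genes. Of those found, Igha, the alpha heavy chain constant gene, and Clec4a1, a C-type lectin, have no values given above. Chance gives such a gap in about 1 of 20 groups. Of the 16, 8 were in tumor-draining replicate 3.

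Tumor-draining replicate 3 was the highest of its group for Slpi at 43.31 CPM, Jchain at 87.91 CPM, Adamdec1 at 82.41 CPM, Siglecf at 13.69 CPM, Clec5a at 41.26 CPM, Ighg2b at 292.5 CPM and Igha at 12.03 CPM, and the lowest for Sned1 at 10.32 CPM. Healthy replicate 3 was the highest for Ifitm1 at 1.528 CPM, Ccr6 at 7.87 CPM and Igha at 1.49 CPM. Healthy replicate 2 was the highest for Olfr108 at 4.844 CPM and the lowest for Clec4a1 at 13.83 CPM and Fabp5 at 116.5 CPM. Healthy replicate 1 was the lowest for Slpi at 0.6353 CPM and Cd3g at 9.798 CPM. Without tumor-draining replicate 3, 532 genes were called.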

How the results depend on the processing

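The counts of called genes depended on the pairing, the tool and single libraries. Without the replicate block, 47 genes were called, 43 higher and 4 lower, in place of 1495, 954 and 541, and the biological coefficient of variation was 33.9% against 20.7% with it. All 47 were among the 1495. Under total counts alone 598 genes were higher, and DESeq2 called 2925, 2067 higher and 858 lower. The deposited TPM gave 316 calls (173 higher, 143 lower) with a pseudocount of 1 and 392 (221 higher, 171 lower) with 0.1. Leaving out 1 library or 1 pair gave 107 to 1742 calls, 80 to 1131 higher and 27 to 611 lower. In settings chosen after seeing the data, leaving out replicates 1 and 2 gave 8 calls, 8 higher and 0 lower, leaving out replicates 3 and 4 gave 273 lower, and protein coding and antigen receptor genes alone gave 881, 599 higher and 282 lower. Fewer samples or fewer genes enter these fits, and for the other settings the cause was not tested. None of the 1495 genes was called in the opposite direction under any setting run.

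Of 147 genes followed through the settings, 145 kept 1 sign in all 8 fits that leave out 1 library. Values near 0 that did not pass the test changed sign. The log2 fold change of Flt3 was 0.0119 with median ratio size factors and with DESeq2, and -0.0919 to 0.0524 when 1 library or 1 pair was left out. The log2 fold change of Cd40 was -0.0050 with total counts, -0.0154 with TPM, and -0.0049 to 0.1047 when 1 library or 1 pair was left out.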
